A study of Bos taurus with 6 samples.

Results

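The triglyceride assembly enzymes were followed here through the glycerol phosphate pathway, as transcripts of intramuscular fat (IMF) from steers and bulls. The genes were taken by symbol from a list of 10, namely GPD1, GPAM, AGPAT1, AGPAT2, AGPAT3, LPIN1, LPIN2, LPIN3, DGAT1 and DGAT2. Of these, 9 were found among the 25444 genes of the mRNA table, and AGPAT1 was not found there under its symbol or its older symbol, so it was not analysed here. All 9 had at least 20 counts in the 2 libraries together, the minimum set for the comparison.

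Qinchuan cattle of 24 months were compared, steers that had been castrated surgically at 6 months against bulls that were left intact, with the same feeding in both groups. IMF was dissected from the sternomandibularis, a neck muscle, and total RNA was pooled within a group, over 6 animals by the series design and over 3 by the sample labels. There was 1 mRNA library per group, read on an Ion Proton sequencer, so neither group had a replicate and no spread between animals could be measured. The libraries held 12677375 counts for steers and 9868415 for bulls.

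Triglyceride is built on a glycerol backbone in a fixed order of reactions. Glycerol 3-phosphate receives one fatty acid and then another to become phosphatidic acid, the phosphate is removed to give diacylglycerol, and a last fatty acid completes the molecule. Most steps have several isozymes that differ in tissue and in place within the cell, and adipocytes depend on some of them strongly: loss of AGPAT2 causes lipodystrophy in humans, and loss of lipin-1 causes it in mice.

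Each step of the pathway had 1 member that was more than 2-fold higher in steers, and the other members lay close to equal. GPD1, GPAM, AGPAT2, LPIN1 and DGAT2 were 2.51-fold to 2.73-fold higher in steers, while AGPAT3, LPIN2, LPIN3 and DGAT1 lay between 0.866-fold and 1.08-fold. Counted against all genes, 5 of 9 members were above 2-fold and higher in steers, where 5.26% of the 13501 genes with at least 20 counts were. None of the 9 was lower in steers by that measure, where 9.95% of genes were. A 2-fold difference joined to an exact binomial test of the reads, which compares these libraries and not the conditions, named the same 5 genes, beside 4.64% of 17752 genes higher and 8.45% lower in steers. With a 1.5-fold threshold the 5 were again the members that passed, beside 13.5% of genes higher. When edgeR's exact test was given an assumed biological coefficient of variation of 0.4 between pools, 0 of the 9 members were called. Over all 17752 genes, 52 were then called higher and 93 lower in steers. With 0.2 the 5 were called, beside 368 genes higher and 762 lower. The genes were chosen with results of these libraries known, and a 2-fold difference between single pools was not set against any spread between animals.

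The study's own follow-up assays addressed 2 of the enzymes, and their primers are shown here because these 2 genes represent the step that makes phosphatidic acid and the step that completes the triglyceride. The sequences are the qRT-PCR primers of the study, 5′ to 3′, and their positions in the genome were not determined here. No results of those assays are used.
AGPAT2 sense: gccctgcgtcatcatctc
AGPAT2 antisense: ggtccccgttgtcattcc
DGAT2 sense: ccaagtcatctcggtgct
DGAT2 antisense: cagccaggtgaagtagagc

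For the values below, a level is given as CPM, the count divided by the library's total counts and multiplied by 1000000, with a 95% Clopper-Pearson interval. Ratios are log2 ratios of steers over bulls after scaling by median-of-ratios size factors (1.04 for steers and 0.959 for bulls) and adding 0.5 counts. Intervals cover counting error only and treat reads as independent molecules. Reads are not independent, so the intervals may be too narrow, and pooling leaves the spread between animals out of them. CPM is not divided by transcript length, so levels are compared between libraries for 1 gene and not between genes. In bulk tissue, fewer cells of a type and less RNA per cell cannot be told apart.

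GPD1 encodes the cytosolic dehydrogenase that turns dihydroxyacetone phosphate into glycerol 3-phosphate, the backbone of the pathway. It had 3529 counts for steers and 1213 for bulls, or 278 CPM (269 to 288) against 123 CPM (116 to 130.0). The log2 ratio of GPD1 was 1.42 (1.32 to 1.51), and 2.63% of genes tested had a larger one. GPAM encodes the mitochondrial glycerol-3-phosphate acyltransferase, which adds the first fatty acid. Its 1343 counts for steers and 451 for bulls correspond to 106 CPM (100.3 to 112) and 45.7 CPM (41.6 to 50.1). GPAM had the largest log2 ratio of the members, 1.45 (1.30 to 1.61). For both entry steps the counting intervals of the levels in steers and bulls lay far apart.

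The second acylation converts lysophosphatidic acid to phosphatidic acid, and it was represented by AGPAT2, the isozyme that human adipose tissue requires, and AGPAT3. AGPAT2 had 4207 counts for steers and 1526 for bulls, which is 332 CPM (322 to 342) against 155 CPM (147 to 163), and its log2 ratio was 1.34 (1.26 to 1.43). AGPAT3 had 480 and 409 counts, or 37.9 CPM (34.6 to 41.4) in steers and 41.4 CPM (37.5 to 45.7) in bulls. The log2 ratio of AGPAT3 was 0.11, with an interval of -0.08 to 0.30 that includes 0. For AGPAT3, then, neither a higher nor a lower level in steers was detectable at this depth.

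The lipins remove the phosphate from phosphatidic acid, and lipin-1 also acts with nuclear receptors as a transcriptional coactivator. LPIN1 had 4683 counts for steers and 1682 for bulls, or 369 CPM (359 to 380.1) and 170.4 CPM (162 to 179), a log2 ratio of 1.35 (1.27 to 1.44). LPIN2 had 338 and 322 counts, 26.7 CPM (23.9 to 29.7) in steers and 32.6 CPM (29.2 to 36.4) in bulls, and a log2 ratio of -0.05 (-0.28 to 0.17). LPIN3 had 264 and 280 counts, 20.8 CPM (18.4 to 23.5) against 28.4 CPM (25.1 to 31.9), and a log2 ratio of -0.21 (-0.46 to 0.04). Thus 1 lipin of 3 was above 2-fold, and the intervals of the other two scaled ratios included 0. In CPM, which uses total counts, LPIN3 was lower in steers beyond its counting intervals.

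The last step joins a fatty acid to diacylglycerol and is carried out by DGAT1 and DGAT2, enzymes of unrelated protein families. DGAT2 had 23283 counts for steers and 8528 for bulls, or 1837 CPM (1813 to 1860.3) and 864 CPM (846 to 883), and a log2 ratio of 1.33 (1.29 to 1.36). DGAT1 had 401 and 410 counts, 31.6 CPM (28.6 to 34.9) in steers and 41.5 CPM (37.6 to 45.8) in bulls. The log2 ratio of DGAT1 was -0.15 (-0.36 to 0.05), so the isozymes of this step lay on both sides of the threshold. In CPM the counting intervals of DGAT1 did not overlap and steers were lower, while the interval of its scaled ratio included 0.

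**Figure D1:**
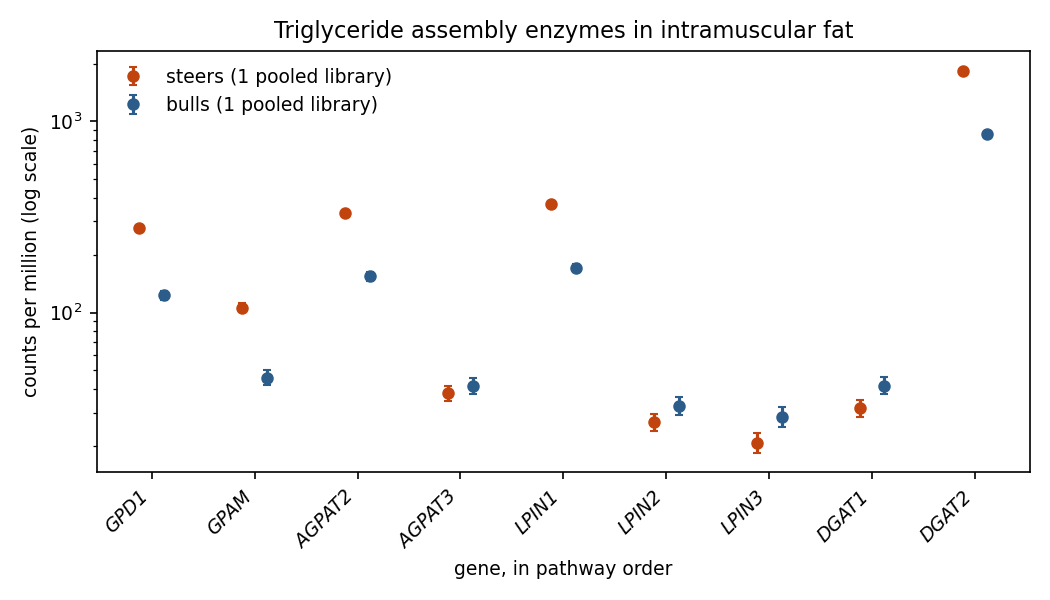
Level of each member in the pooled library of steers and of bulls, in CPM on a log axis, with 95% Clopper-Pearson intervals; genes are in pathway order and values are not divided by transcript length. GPD1, GPAM, AGPAT2, LPIN1 and DGAT2 were higher in steers, DGAT2 at 1837 against 864 CPM, while the points of the other 4 genes lie close together.

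The members fell into 2 groups. The 5 members above 2-fold had log2 ratios from 1.33 to 1.45. The 4 others lay from -0.21 to 0.11, with no member between the groups, and the median over all genes tested was 0.02. The median of the 9 members was 1.33, which is the value of DGAT2 and describes neither group well. Together the 5 genes made up 0.292% of the steer library and 0.136% of the bull library, and the other 4 made up 0.0117% and 0.0144%.

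**Figure D2:**
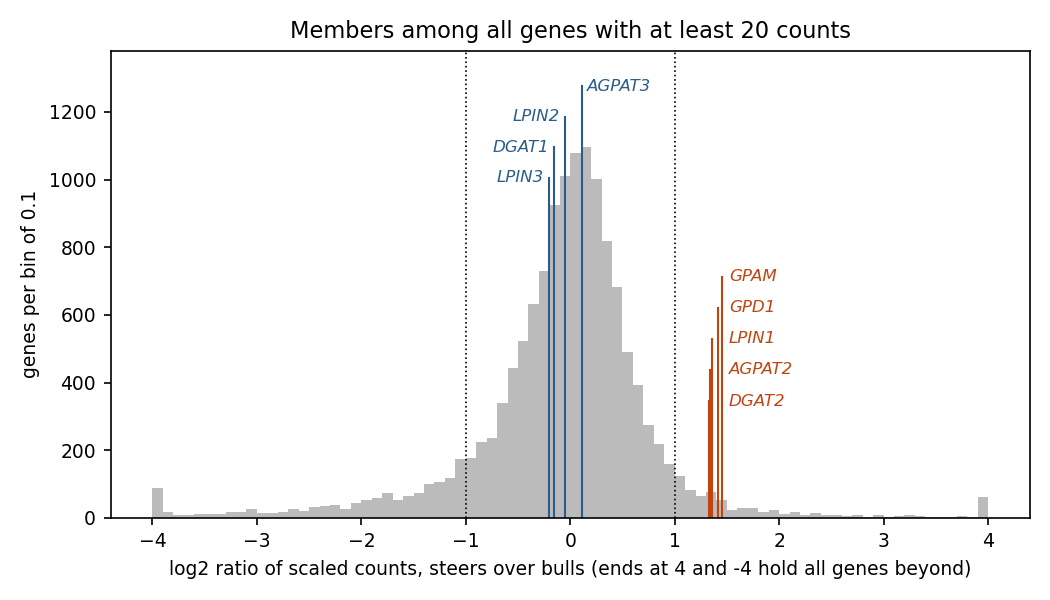
Histogram of log2 ratios, steers over bulls, of all 13501 genes with at least 20 counts, with the members as vertical lines and dotted lines at 2-fold. The 4 members near 0 (blue) stand in the main peak and the 5 at 1.33 to 1.45 (red) stand in the upper tail; line height carries no value.

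Whether the 5 genes differed from each other was examined with odds ratios of their counts between the libraries, a measure that does not depend on how the libraries are scaled. Of the 10 pairs among them, 0 had a 95% exact interval that excluded an odds ratio of 1. The widest separation was that of GPAM and DGAT2, with an odds ratio of 1.09 (0.977 to 1.22). AGPAT2 and LPIN1, from consecutive steps, had an odds ratio of 0.990 (0.913 to 1.07). Over the 10 pairs the intervals reached from 0.860 to 1.22, so differences between the 5 ratios beyond that range did not appear within counting error. Among the other 4 genes, 0 of 6 pairs had an interval that excluded 1, but these had fewer counts and their intervals reached from 0.771 to 1.55. Between the groups, the odds ratios of the 20 pairs ran from 2.33 (2.03 to 2.67) for DGAT2 against AGPAT3 to 3.16 (2.57 to 3.87) for GPAM against LPIN3, which describes groups that the same ratios set apart.

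Isozymes of a step were compared in the same way. DGAT2 made up 98.3% (98.1 to 98.5) of the DGAT1 and DGAT2 counts in steers and 95.4% (94.96 to 95.8) in bulls, an odds ratio of 2.79 (2.42 to 3.22). AGPAT2 made up 89.8% (88.9 to 90.6) of the AGPAT2 and AGPAT3 counts in steers and 78.9% (77.0 to 80.7) in bulls, an odds ratio of 2.35 (2.03 to 2.72). LPIN1 made up 88.6% (87.7 to 89.5) of the counts of the 3 lipins in steers and 73.6% (71.8 to 75.4) in bulls, an odds ratio of 2.78 (2.45 to 3.16). LPIN2 and LPIN3 kept their proportion within counting error, with an odds ratio of 1.11 (0.881 to 1.41). In all 3 steps the pool of steers held a larger part of the isozyme that was above 2-fold. This direction follows from how the genes were set apart and adds no support to it. A share depends on transcript length, whereas the odds ratio between libraries does not.

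Summed over the members of a step, every step was higher in steers. The log2 ratio of the summed counts was 1.15 (1.08 to 1.23) for AGPAT2 and AGPAT3, 1.09 (1.02 to 1.16) for the 3 lipins and 1.28 (1.25 to 1.32) for DGAT1 and DGAT2, compared with 1.42 for GPD1 and 1.45 for GPAM, each the single member of its step. Sums that take in isozymes outside the members were added after the values were seen. The first acylation fell under 2-fold when GPAT2, GPAT3 and GPAT4 were summed with GPAM, at 0.81 (0.72 to 0.91) from 2526 and 1319 counts. GPD1 with GPD1L was at 1.34 (1.25 to 1.43), and AGPAT2 to AGPAT5 together were at 1.07 (1.00 to 1.14).

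Isozymes outside the 10 genes were taken from a list of 9 acyltransferases, of which 5 had at least 20 counts. None of the 5 was above 2-fold in either direction, and their median log2 ratio was 0.12, against 0.02 for all genes tested. GPAT4, an acyltransferase of the endoplasmic reticulum that the table lists as AGPAT6, had 1117 counts for steers and 774 for bulls, a log2 ratio of 0.41 (0.27 to 0.54). Set against it, GPAM had an odds ratio of 2.06 (1.79 to 2.38), so the ratios of GPAM and GPAT4 differed beyond counting error. GPAT3, listed as AGPAT9, had 58 and 87 counts and a log2 ratio of -0.70 (-1.21 to -0.21). AGPAT5 had 260 and 220 counts and a log2 ratio of 0.12 (-0.15 to 0.38). AGPAT2 made up 84.0% of the counts of AGPAT2 to AGPAT5 in steers and 69.6% in bulls, an odds ratio of 2.30 (2.04 to 2.59). GPD1L, a relative of GPD1, had 172 and 131 counts, and the odds ratio of GPD1 against it was 2.22 (1.73 to 2.82).

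**Figure D3:**
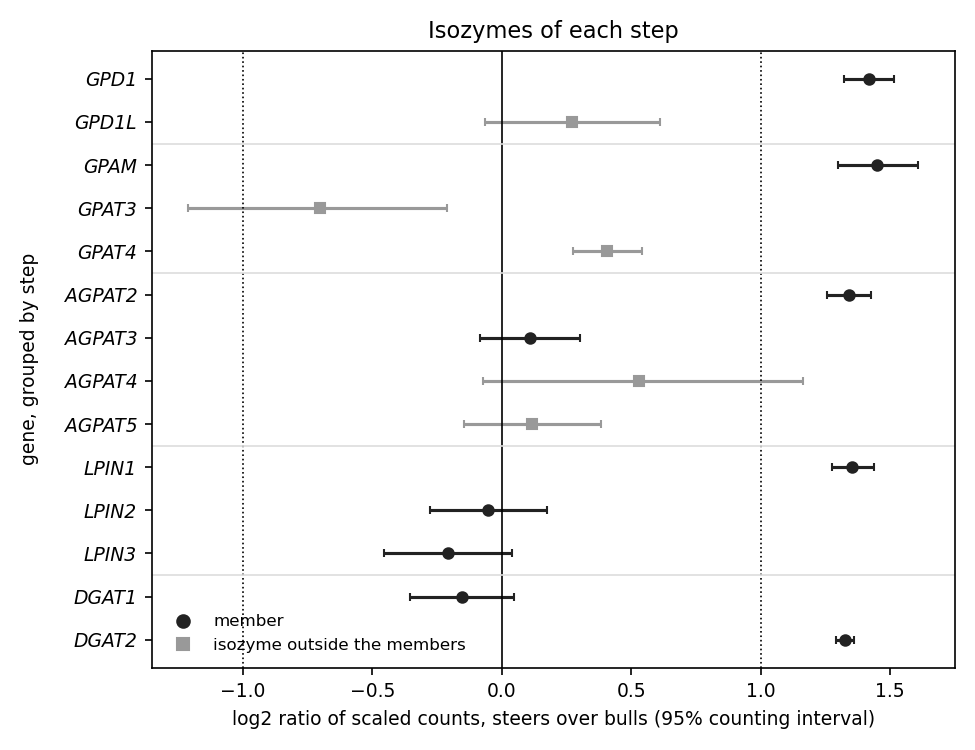
Log2 ratio of scaled counts, steers over bulls, of the members (black circles) and of isozymes outside them (grey squares), grouped by step between the grey lines, with 95% counting intervals and dotted lines at 2-fold. In each of the 5 groups 1 member lies right of the 2-fold line, GPAM at 1.45 and DGAT2 at 1.33 for example, and every other point lies left of it.

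The supply of glycerol phosphate was represented by 6 further genes, of which 1 was above 2-fold. That gene was PCK1, whose product, phosphoenolpyruvate carboxykinase, feeds glyceroneogenesis in fat, with 2337 counts for steers and 402 for bulls and a log2 ratio of 2.42 (2.26 to 2.57). TPI1, an enzyme of glycolysis and the most counted of the list over both pools, was at 0.41 (0.32 to 0.50) with 2571 and 1781 counts. AQP7, the glycerol channel of adipocytes, was at -0.08 (-0.17 to 0.01) with 2002 and 1950 counts. The median of the list was 0.09.

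Phosphatidic acid can also lose its phosphate through enzymes other than the lipins. Of 6 such genes and lipin regulators with at least 20 counts, 0 were above 2-fold and the median was 0.35. PLPP3, a phosphatase of lipid phosphates at the cell surface that is listed as PPAP2B, came nearest, with 12754 counts for steers, 5878 for bulls and a log2 ratio of 1.00 (0.95 to 1.04) just under the threshold, which it passed under the upper quartile and adipocyte marker scalings. CTDNEP1, the phosphatase that activates lipins, was at 0.36 (0.22 to 0.51).

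From diacylglycerol and phosphatidic acid the pathway branches to phospholipids, and 13 genes of these branches were tested, 4 of them above 2-fold and higher in steers and 1 lower. Of the 4, PCYT2, the rate-limiting enzyme of the ethanolamine branch, had 986 counts for steers and 330 for bulls, a log2 ratio of 1.46 (1.28 to 1.64). PEMT, which methylates phosphatidylethanolamine to phosphatidylcholine, was at 1.11 (0.80 to 1.43). PCYT1B and EPT1 were at 2.15 (0.96 to 3.80) and 1.10 (0.16 to 2.19), from 31 and 6 and from 31 and 13 counts, so that these 2 ratios have wide intervals. PEMT and EPT1 were under 2-fold with libraries scaled to total counts, with or without the 10 most counted genes, and EPT1 with a prior of 5 counts as well, while PCYT2 and PCYT1B passed each time. PGS1, an enzyme of the cardiolipin branch, was lower in steers, with 209 and 444 counts and a log2 ratio of -1.21 (-1.45 to -0.97), and was within 2-fold under the adipocyte markers. PTDSS1, which makes phosphatidylserine and had the most counts of the list, was at 0.08 (-0.03 to 0.20). The median of the branch genes was 0.05.

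Diacylglycerol kinases run opposite to the lipins and return diacylglycerol to phosphatidic acid. Of 7 kinases tested, DGKA alone was above 2-fold, with 2229 counts for steers and 744 for bulls and a log2 ratio of 1.46 (1.34 to 1.58). The other 6 lay between -0.64 and 0.82, and the median of the list was -0.19.

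Newly made triglyceride is stored in droplets that bud from the endoplasmic reticulum and is later broken down by lipases. In the list of droplet formation 0 of 8 genes were above 2-fold and higher in steers and 1 was lower, FITM1, a fat storage-inducing protein of muscle, with 18 and 53 counts and a log2 ratio of -1.65 (-2.54 to -0.89). FITM2, its relative in adipose tissue, was at 0.82 (0.68 to 0.96). BSCL2, which encodes seipin, was at 0.14 (-0.03 to 0.32), and PLIN2, a droplet coat protein with the most counts of the list, was at 0.16 (0.04 to 0.28). PNPLA2, the lipase that starts triglyceride breakdown, and PNPLA3 were not found under their symbols and were not analysed here. Of 5 genes of breakdown and its control tested, 0 were above 2-fold and the log2 ratios ran from -0.37 to 0.05. The lowest was G0S2, which is not a lipase, at -0.37 (-0.54 to -0.21) with 564 and 671 counts. LIPE, hormone-sensitive lipase, had 5234 counts for steers and 4890 for bulls, a log2 ratio of -0.02 (-0.08 to 0.03). MGLL, which cleaves the last fatty acid from glycerol, was at 0.03 (-0.09 to 0.14).

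Among 11 transcription factors and regulators of lipid synthesis, 2 were above 2-fold. THRSP, a nuclear protein tied to lipogenesis, had 5537 counts for steers and 1328 for bulls, a log2 ratio of 1.94 (1.85 to 2.03). INSIG1, which retains the sterol-sensing complex in the endoplasmic reticulum, had 1237 and 145 counts, a log2 ratio of 2.97 (2.72 to 3.23). The factors themselves were within 2-fold. SREBF1 was at 0.25 (0.15 to 0.34), NR1H3 at 0.30 (0.15 to 0.46), PPARG at 0.32 (0.06 to 0.59) and MLXIPL at -0.23 (-0.81 to 0.35), and CEBPA was the lowest of the list at -0.83. The median of the list was 0.24. Over all 8 pathway lists, 8 of 61 genes tested, or 13.1%, were above 2-fold and higher in steers and 2 were lower, or 3.28%, beside 5.26% and 9.95% of all genes tested, and the median log2 ratio was 0.11. A single list holds 5 to 13 tested genes, so 1 gene shifts its share widely and the counts of single lists are descriptions. These lists were written from general knowledge with earlier results of these data known.

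**Figure D4:**
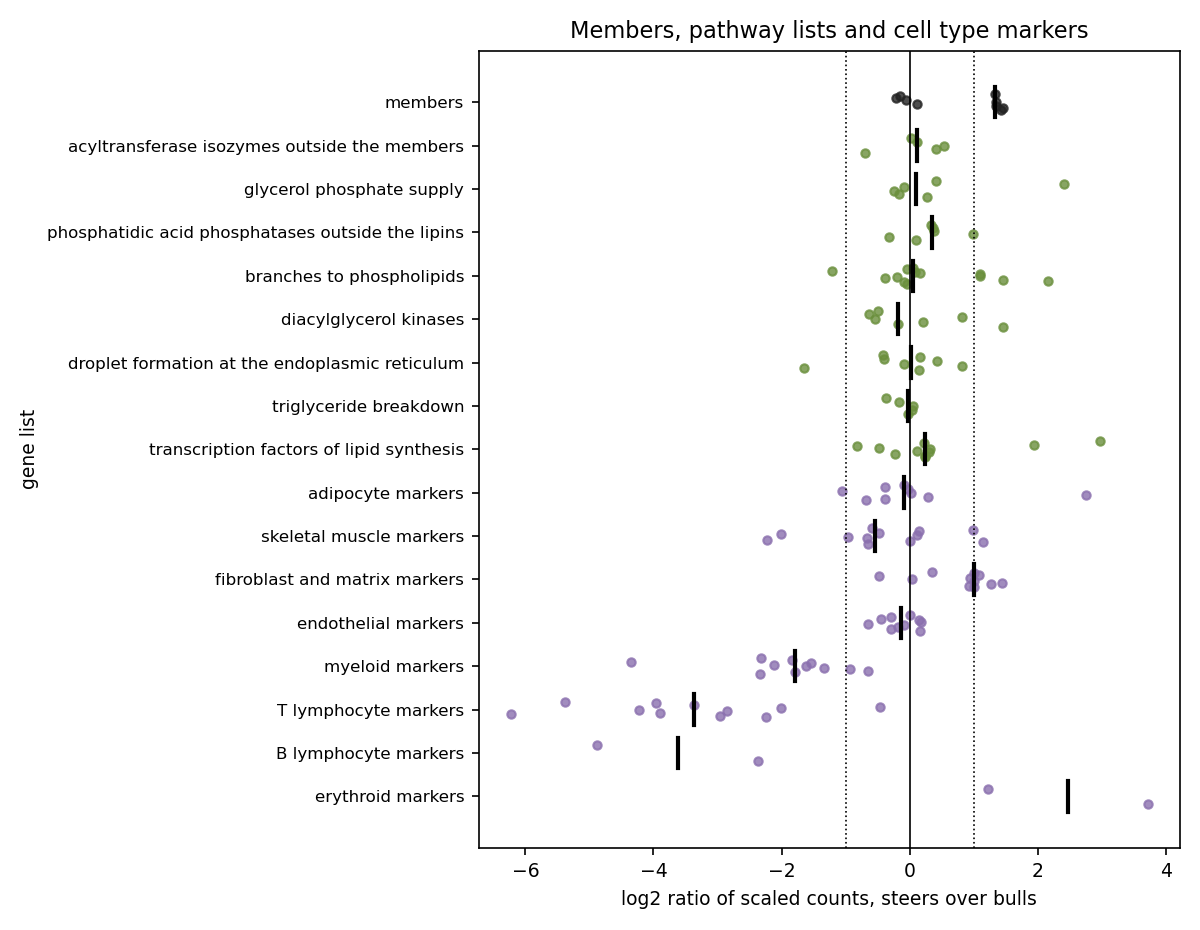
Log2 ratio of scaled counts, steers over bulls, of every gene with at least 20 counts in the members (black), the 8 pathway lists (green) and the 8 cell type marker lists (purple), with a bar at each median and dotted lines at 2-fold. The members split into a group at 1.33 to 1.45 and a group around 0, most pathway genes lie within 2-fold, and the myeloid and T lymphocyte markers lie to the left with medians of -1.79 and -3.37.

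Markers of cell types were read beside these results, since the pools were whole tissue. The labelled tissue was looked at with 11 adipocyte markers, which summed to 2702 CPM in steers and 3798 in bulls. Of these markers CIDEC, a droplet protein, had the most counts over both pools, at 783 and 760.1 CPM, and FABP4 had the most counts in bulls. Muscle markers summed to 2605 CPM in steers and 4582 in bulls, and myeloid markers to 2623 and 8601. Fibroblast and matrix markers summed to 132996 and 77864 CPM. Adipocyte transcripts were thus present, but these sums do not measure how much of the tissue was fat. ADIPOQ and PLIN1 had log2 ratios of -0.68 (-0.74 to -0.63) and -0.38 (-0.44 to -0.32). RETN had 0 counts in steers, which allows up to 0.237 CPM, and 8 in bulls, and ADRB3 had 0 and 2 counts. Of the 9 adipocyte markers tested, 1 was above 2-fold and higher in steers, CIDEA at 2.75 (2.49 to 3.02), and 1 was lower, FABP4 at -1.06, and their median was -0.08. With the libraries scaled to the summed adipocyte markers, the same 5 members were above 2-fold, from 1.58 for DGAT2 to 1.70 for GPAM. Under that scaling CIDEA was still above 2-fold, FABP4 was within it, and the median of the adipocyte markers was 0.17.

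Markers of other cells differed between the pools as well. Of 11 fibroblast and matrix markers, 4 were above 2-fold and higher in steers (COL6A1, COL3A1, SPARC and COL1A1), the list summed to 132996 CPM in steers and 77864 in bulls with COL3A1 the most counted over both pools and COL1A2 in bulls, and its median was 1.00. That count of 4 depended on the scaling, with 2 under total counts (COL6A1 and COL3A1), 3 under edgeR's TMM factors, 6 under the upper quartile and 8 under the adipocyte markers. Of 11 myeloid markers 9 were above 2-fold and lower in steers, from LYZ at -4.35 through CD14, AIF1, C1QC and CD74 as the next lowest, with 2623 and 8601 CPM for the list and CD74 the most counted. Of 11 T lymphocyte markers 10 were lower, at 14.7 and 113 CPM for the whole list, with CD3E the most counted over both pools and CD247 in steers. The lowest of them were CD3G, with 0 counts for steers and 34 for bulls, and CD27, CD8A, ZAP70 and CD2. Of 12 muscle markers, 1 was higher (MYH1) and 2 were lower (MYH7 and TNNT1), with 2605 and 4582 CPM and ACTA1 the most counted. Endothelial markers had 0 of 10 above 2-fold and a median of -0.14, with PECAM1 the most counted at 358 and 377 CPM. B lymphocyte markers were scarce, at 2.21 and 16.6 CPM, with CD22 the most counted, MS4A1 and CD79B at 0 counts in both pools, and 2 of 2 tested genes lower in steers (CD72 and CD22). Erythroid markers were at 3.16 and 0.811 CPM, with HBB (21 and 1 counts) and HBA (16 and 6 counts) equal in counts over both pools, ALAS2 at 0 counts in both, and these 2 tested genes higher in steers. The log2 ratio of HBA was 1.22, with an interval of -0.13 to 2.93 that includes 0. HBA was under 2-fold with total counts and with a prior of 5 counts, while HBB was above it in both. The part of these cell types in the levels of the triglyceride enzymes was not tested.

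The position of the members against the threshold was examined under 5 other scalings of the libraries. GPD1, GPAM, AGPAT2, LPIN1 and DGAT2 were above 2-fold under each of them, with the smallest values under total counts, from 1.09 for DGAT2 to 1.21 for GPAM. Under total counts the median of all genes tested was -0.22, under total counts without the 10 most counted genes it was -0.13, and under the adipocyte markers it was 0.27, compared with 0.02 under the main scaling. The direction of the other 4 genes depended on the scaling: AGPAT3 was at -0.13 under total counts and 0.36 under the adipocyte markers, LPIN2 at -0.29 and 0.20, LPIN3 at -0.45 and 0.05 and DGAT1 at -0.39 and 0.10. The order of the 9 ratios was the same under every scaling, since a scaling shifts all genes alike.

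**Figure D5:**
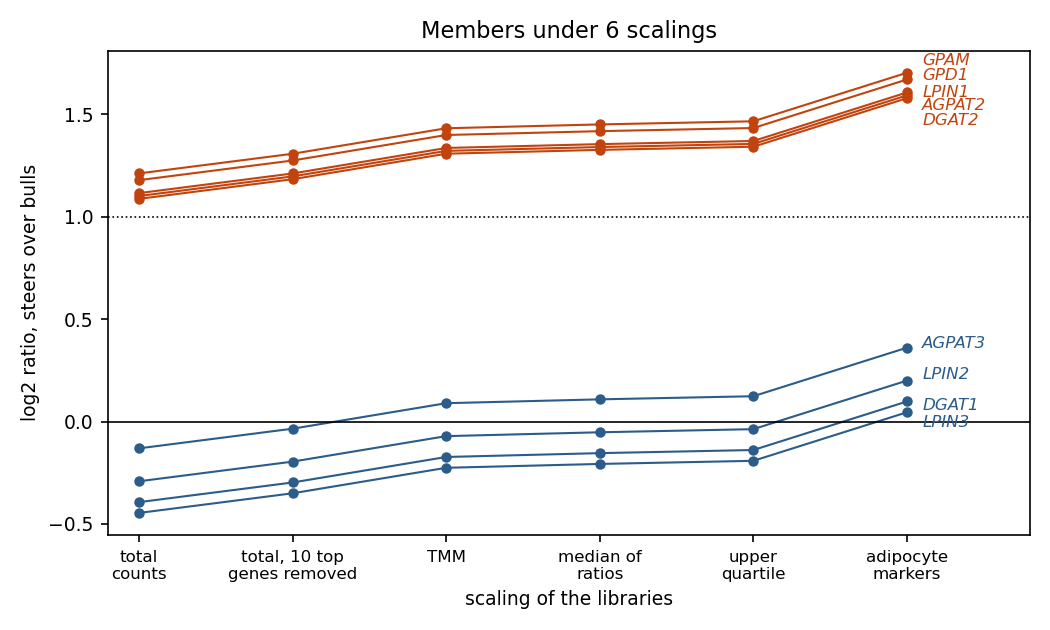
Log2 ratio of each member, steers over bulls, under 6 scalings of the libraries, with a dotted line at 2-fold. The 5 upper lines (red) stay above the threshold in all 6 scalings, lowest at 1.09 for DGAT2 under total counts, and the 4 lower lines (blue) cross 0.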

How the data were processed

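The authors removed adaptors and low-quality reads, mapped what remained with MapSplice against the cattle genome and deposited raw counts per gene, without normalization. The tool that counted reads, and whether it used strand, are not given in the sources used here, so reads of overlapping genes on opposite strands cannot be told apart. The submitters' processing notes list BWA and the human build GRCh37.p13, neither of which the methods name for the mRNA reads. Groups follow the sample titles. The small RNA counts were not used here.

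Libraries were brought to one scale by median-of-ratios size factors (numpy 2.4.6). A gene was placed above 2-fold at an absolute log2 ratio over 1 among genes with at least 20 counts in both libraries together. Because each group is a single library, the conditions cannot be tested and the fold alone decides. Clopper-Pearson intervals and conditional odds ratios (95%, scipy 1.17.1) cover counting error. The ratios and their intervals were tested on simulated counts with counting error only. Spread between animals was not simulated, so the comparison of steers with bulls was not tested by it. The members, lists and call rule were chosen with earlier results of these data known. All members are named, and of each list the genes above 2-fold, at most 5 a direction, with the most counted gene over both libraries. Other genes of the pathway lists and 2 adipocyte markers, ADIPOQ and PLIN1, as well as RETN, ADRB3, COL1A2, CD247, MS4A1, CD79B and ALAS2, were named after their values were seen. Alternatives were other scalings, a prior of 5 counts, other minimum counts, a 1.5-fold threshold, an exact binomial test and edgeR 4.0.16 exact tests with an assumed spread. Transcript lengths and gene sequences were not used here, so levels were not ordered between genes. The most counted gene of a list is so by its counts alone.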

Additional observations from a re-analysis of the deposited data

How the results depend on the processing

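No spread between animals could be estimated, which limits every comparison of steers with bulls here. When edgeR's exact test was given an assumed biological coefficient of variation of 0.4 between pools, 0 members were above 2-fold with an adjusted p under 0.05, and 52 genes higher and 93 lower were called among 17752. With an assumed value of 0.2 the 5 members were called, among 368 genes higher and 762 lower. The count of 5 higher and 0 lower was also reached under every scaling, the prior of 5 counts, minimums of 1 and of 100 counts, a 1.5-fold threshold, and the exact binomial test. Over all genes the share above 2-fold moved with the scaling, from 5.26% higher and 9.95% lower to 3.51% and 13.6% under total counts and 8.97% and 7.36% under the adipocyte markers. It also moved with the minimum count, to 12.8% and 15.5% at 1 count and to 3.27% and 6.63% at 100 counts. The median of the members moved from 1.33 to 1.09 under total counts, to 1.18 without the 10 most counted genes and to 1.58 under the adipocyte markers. Of the pathway genes, 8 were higher and 2 lower in steers, with 6 and 3 under total counts, 9 and 2 under the upper quartile, and 11 and 1 under the adipocyte markers. Taken list by list, an alternative added after the data were seen, total counts left PEMT and EPT1 under 2-fold and brought CEBPA past it as lower, and the adipocyte markers brought PLPP3, DGKI and FITM2 past it as higher and left PGS1 under it. Among the markers, total counts changed muscle from 1 higher and 2 lower to 0 and 3, myeloid from 9 lower to 10, and erythroid from 2 higher to 1. The adipocyte marker scaling left FABP4 within 2-fold, and a prior of 5 counts left HBA within it. The LPIN1 odds ratio was 2.65 with LPIN2 alone. The planned comparisons with AGPAT1, of levels per length and of sequence motifs were not run. No paired analysis was possible because each group had a single mRNA library. Depth limits AGPAT3, LPIN2, LPIN3 and DGAT1 most, with 264 to 480 counts per library.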

Other observations

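The acyltransferases that start from monoacylglycerol, the route of the intestine, were almost uncounted in both pools. MOGAT1 had 0 counts in steers and in bulls, MOGAT2 had 2 and 1, and MOGAT3 had 9 and 0, all under the minimum for comparison. GPAT2, the glycerol-3-phosphate acyltransferase best known from testis, had 8 counts in steers and 7 in bulls.

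Among the names of genes in the mRNA data, 24 have the form of calendar dates, with 15218 counts in steers and 12416 in bulls. None of the triglyceride enzymes is affected.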
